A study of Homo sapiens with 16 samples.

Results

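The enzymes that cut the extracellular matrix, and the system that turns plasminogen into plasmin, were followed here through 9 genes: the matrix metalloproteinases MMP1, MMP7, MMP9, MMP10, MMP13 and MMP14, the urokinase gene PLAU, its receptor gene PLAUR, and the inhibitor gene TIMP1. Members were chosen by name, as all probes of the array table that carry 1 of these symbols. This gave 11 probes of 24526, for 9 of 18631 symbols. PLAUR had 3 probes, and each of the other 8 genes had 1. A probe was tested when its detection p-value, the share of negative control probes at least as bright, was under 0.05 on at least 3 of 16 arrays. That left 8 member probes of 6 genes. MMP1, MMP10 and MMP13 did not pass and are described by signal only.

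Expression was measured in SUM225 (SUM-225 in the labels), a HER2-amplified breast cancer cell line, with 1 µM CP724,714 in the culture medium. CP724,714 is a small molecule inhibitor specific for the HER2 kinase. The labels give for all cultures, the 0 h one at the start of treatment included, a medium of Ham's F-12 with 5% serum, 5 µg/ml insulin and 1 µg/ml hydrocortisone, whereas the study's methods describe a serum-free medium without insulin for this line. Separate cultures of this single line were harvested at 3 h intervals up to 45 h, and each was read on 1 Illumina bead array, so that the 16 time points had no replicates.

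Plasminogen circulates as an inactive precursor. Urokinase (uPA, from PLAU), held at the cell surface by its glycosylphosphatidylinositol-anchored receptor (uPAR, from PLAUR), cleaves it to plasmin, which degrades fibrin and activates several latent metalloproteinases. Metalloproteinases are zinc-dependent enzymes made as latent precursors and blocked by tissue inhibitors such as TIMP1. In breast carcinoma many of them are made mainly by stromal cells, while MMP7 is typically a product of the epithelium.

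Over 45 h in the inhibitor, the 3 PLAUR probes fell (linear change of -1.54 to -1.39 log2 units), TIMP1 fell by 0.69 and MMP9 fell by 1.05, while MMP7 rose by 2.31. MMP9 and MMP7 lay close to background, and without background correction their changes were -0.38 and 0.86, so their sizes are uncertain. With the set of 4 consecutive arrays as a factor, which leaves only differences within 9 h, 1 of the 6 probes with a trend (PLAUR ILMN_2374340) was still called. Of all 16110 probes tested, 145 were called in that fit. PLAU had no linear trend, but was higher at 24 to 33 h than at 12 to 21 h. MMP14 stayed near the limit of detection and did not pass any test. The signals of MMP1, MMP10 and MMP13 were not detected on any array.

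MMP1, MMP7, MMP10 and MMP13 belong to the metalloproteinase cluster of chromosome 11, and their genes lie between positions 102520508 and 102955732 (RefSeq, assembly GRCh38.p14, which was used for names, positions and sequences only). MMP9 is at chr20:46008908-46016561, MMP14 at chr14:22836585-22847758, PLAU at chr10:73908832-73917494, PLAUR at chr19:43646095-43670169 and TIMP1 at chrX:47582436-47586789. The array table gives no position for a probe, so the exon that each probe reads was not determined. Several of these genes are textbook targets of AP-1 and of the PEA3 family of ETS factors, whose own transcripts were measured on the same arrays. RefSeq promoter windows of 300 bases, from 250 before the start site to 50 after it, were matched for 6 of the 9 members (7 windows, PLAU having 2). MMP1, MMP9 and MMP13 were not matched. Each window was searched on both strands for the AP-1 letters TGANTCA and for the PEA3 letters AGGAAG, which do not overlap each other in any of these windows. AP-1 letters were found for MMP7, MMP10 and PLAUR, and in 7.72% of all 34943 windows of the table. PEA3 letters were found for MMP7, PLAUR, TIMP1 and 1 PLAU window, and in 33.7% of all windows. The 250 bases before the start are given for the 3 genes with AP-1 letters and for TIMP1, 5′ to 3′ along the gene, with the matched letters in capitals. MMP7 and PLAUR were chosen because they hold both motifs and moved in opposite directions, MMP10 because it shares the place of the AP-1 letters with MMP7, and TIMP1 because it fell and holds PEA3 letters alone.
MMP7, chr11:102530748-102530997, minus strand: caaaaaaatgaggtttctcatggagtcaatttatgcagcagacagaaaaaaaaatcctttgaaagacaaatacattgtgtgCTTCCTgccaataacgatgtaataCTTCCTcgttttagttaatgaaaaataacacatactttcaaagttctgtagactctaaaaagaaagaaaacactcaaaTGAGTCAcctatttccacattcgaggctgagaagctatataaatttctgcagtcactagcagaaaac
MMP10, chr11:102780629-102780878, minus strand: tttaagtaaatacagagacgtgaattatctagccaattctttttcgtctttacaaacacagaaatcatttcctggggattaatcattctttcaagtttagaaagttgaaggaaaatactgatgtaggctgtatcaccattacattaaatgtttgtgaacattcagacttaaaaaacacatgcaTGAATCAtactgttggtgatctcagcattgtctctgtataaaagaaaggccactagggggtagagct
PLAUR, chr19:43670170-43670419, minus strand: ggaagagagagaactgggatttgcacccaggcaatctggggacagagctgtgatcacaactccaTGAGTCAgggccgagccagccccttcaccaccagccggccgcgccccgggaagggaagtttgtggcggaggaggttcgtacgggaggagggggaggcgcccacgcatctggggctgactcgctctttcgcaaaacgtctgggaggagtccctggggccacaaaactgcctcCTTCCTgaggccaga
TIMP1, chrX:47582186-47582435, plus strand: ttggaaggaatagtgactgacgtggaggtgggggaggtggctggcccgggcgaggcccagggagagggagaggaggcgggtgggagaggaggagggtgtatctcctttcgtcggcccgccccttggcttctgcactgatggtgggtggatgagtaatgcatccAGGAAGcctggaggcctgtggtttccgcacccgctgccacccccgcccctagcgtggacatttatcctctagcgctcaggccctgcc

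Counted from the start site, the AP-1 letters begin at -67 in both MMP7 and MMP10 and at -186 in PLAUR. The PEA3 letters stand on the reverse strand, and are read as CTTCCT here, at -169 and -145 in MMP7 and at -15 in PLAUR, and on the forward strand at -87 in TIMP1. In PLAU they begin at -221 of the window chr10:73910882-73911181. The other PLAU window and the MMP14 window held neither set of letters. A match describes letters in a window only.

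The median signal of the arrays ranged from 242 to 384, and the 27 h array was the brightest, so raw signals at 27 h ran high for most members. Between 57.5% and 61.5% of probes were detected. Values below are therefore background-corrected, quantile-normalized log2 signals unless raw signal is named. Markers of the labelled cell type, KRT8, KRT18, KRT19, CDH1, TACSTD1 (EPCAM), ERBB2 and GRB7, were detected on 16 of 16 arrays. Of these KRT8 fell by 0.68 ± 0.10 and KRT18 fell by 0.74 ± 0.10 log2 units over 45 h (limma, adjusted p = 2.14e-05 and 7.73e-06), and the others were not called. Raw signals of ERBB2 (68945 to 72059) and KRT19 (66523 to 71696) lay near the array maxima (71727 to 74152), and GRB7 reached 71265. This limits the changes that can be measured in them. Of 5 fibroblast markers VIM, COL3A1 and PDGFRB were detected on 0 arrays, and COL1A1 and COL1A2 on 5. Of 4 leukocyte markers PTPRC was detected on 0 arrays and CSF1R on 2, while CD14 and CD68 were detected on 16 and rose slightly (0.34 ± 0.14 and 0.38 ± 0.14 log2 units over 45 h, limma, adjusted p = 0.0499 and 0.0341). The summed normalized signal of the leukocyte list was 3283 to 4074 at 3 to 9 h and 4188 to 6130 at 36 to 45 h, and that of the fibroblast list was 219 to 293 and 207 to 229. Of the endothelial markers PECAM1 was detected on 16 arrays and CDH5 on 1. The part of these changes in the results was not tested. Sets of 4 consecutive arrays, beginning at 0, 12, 24 and 36 h, stood apart in an earlier analysis, and the labels name no batch, so set and time cannot be told apart. No untreated course was analysed here, so the inhibitor and the time in culture cannot be told apart either.

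The first comparison asked which members followed a course in time. A cubic course over the 16 arrays was fitted with limma, and p-values were adjusted by Benjamini-Hochberg over all 16110 probes tested. Of the 8 member probes, 6 were time-dependent (51.3% of all probes were). A linear rise was called for 1 probe, MMP7 (26.0% of all probes), and a linear fall for 5 probes, MMP9, TIMP1 and the 3 of PLAUR (21.7% of all probes). MMP7 entered the test only through its arrays from 24 h on, where it was high. The median linear change of all probes was 0.05 log2 units. No member was called curved in limma (0 of 8, and 2 at an unadjusted p under 0.05, against 19.3% of all probes), and the lowest adjusted p was 0.108. In RNA of a whole culture, fewer cells that transcribe a gene and less RNA per cell cannot be told apart.

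PLAUR encodes the receptor that concentrates urokinase on the cell surface. The probe ILMN_2374340 had raw signals from 835 (45 h) to 2855 (0 h), with a median of 1865, and was detected on all 16 arrays. Its log2 signal was 11.46 at 0 h and 11.24, 11.17 and 11.04 at 3, 6 and 9 h. It was 10.97, 10.67, 10.69 and 10.71 from 12 to 21 h, and 10.69, 10.39, 10.39 and 10.30 from 24 to 33 h. The last arrays were the lowest, with 10.34, 10.20, 10.18 and 9.79 from 36 to 45 h. The decline was spread over the whole course, and each 12 h window averaged lower than the one before. The linear change was -1.39 ± 0.09 (SE) log2 units (limma, adjusted p = 8.21e-10), within a range of 3.18-fold.

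The other PLAUR probes followed the same descent. ILMN_2408543 went from 10.01 at 0 h to 8.25 at 45 h, a range of 3.38-fold. ILMN_1691508 was 10.85 at 0 h, and ranged 2.75-fold from its highest value of 10.89 at 3 h to its lowest of 9.43 at 36 h. Their linear changes were -1.52 ± 0.12 (limma, adjusted p = 8.16e-09) and -1.54 ± 0.10 (limma, adjusted p = 5.51e-10). The first stood at 9.75 or above through 9 h and at 9.00 or below from 27 h on. The second stayed between 10.57 and 10.89 through 9 h and between 9.43 and 9.67 from 36 h on. Since the probes read transcripts of the same gene in the same RNA, they are not independent. With the 12 h set as a factor, which leaves only differences within 9 h, ILMN_2374340 was the only member probe called (-1.86 ± 0.40, limma, adjusted p = 0.0353, against 145 of all probes), and ILMN_2408543 (-1.27 ± 0.52, adjusted p = 0.257) and ILMN_1691508 (-0.73 ± 0.46, adjusted p = 0.491) kept their sign.

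PLAU encodes urokinase itself. Its probe was detected on all 16 arrays with raw signals from 578 (6 h) to 1603 (27 h) and a median of 803. The log2 signal was 9.71 at 0 h, then 9.18, 9.32 and 9.64 at 3, 6 and 9 h. From 12 to 21 h it was 9.12, 9.07, 8.95 and 9.05, the 4 lowest values of the course. From 24 to 33 h it was 9.64, 9.80, 9.70 and 9.33, and from 36 to 45 h 9.44, 9.65, 9.29 and 9.24. The ligand gene thus had a trough at 12 to 21 h and ended between that trough and its highest value. Its linear change of 0.09 ± 0.18 (95% interval -0.29 to 0.46) was not called (limma, adjusted p = 0.726), nor was the course as a whole (adjusted p = 0.119). The estimate was -0.89 ± 0.60 with the 12 h set as a factor (limma, adjusted p = 0.524), a change of sign.

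TIMP1 encodes a secreted inhibitor of most metalloproteinases. Its probe was detected on all arrays, with raw signals from 2699 (45 h) to 7132 (27 h) and a median of 4611. The log2 signal was 12.33 at 0 h and 12.46, 12.44 and 12.45 at 3, 6 and 9 h. It was 12.11, 12.11, 11.98 and 11.98 from 12 to 21 h, 12.20, 12.14, 12.20 and 11.95 from 24 to 33 h, and 11.69, 11.87, 11.79 and 11.68 from 36 to 45 h. The values came down in steps, with the 3 to 9 h arrays all above the later ones and the 36 to 45 h arrays all below the earlier ones. The linear change was -0.69 ± 0.11 (limma, adjusted p = 3.31e-05), and with the set as a factor it was -0.36 ± 0.35 (adjusted p = 0.679).

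**Figure D1:**
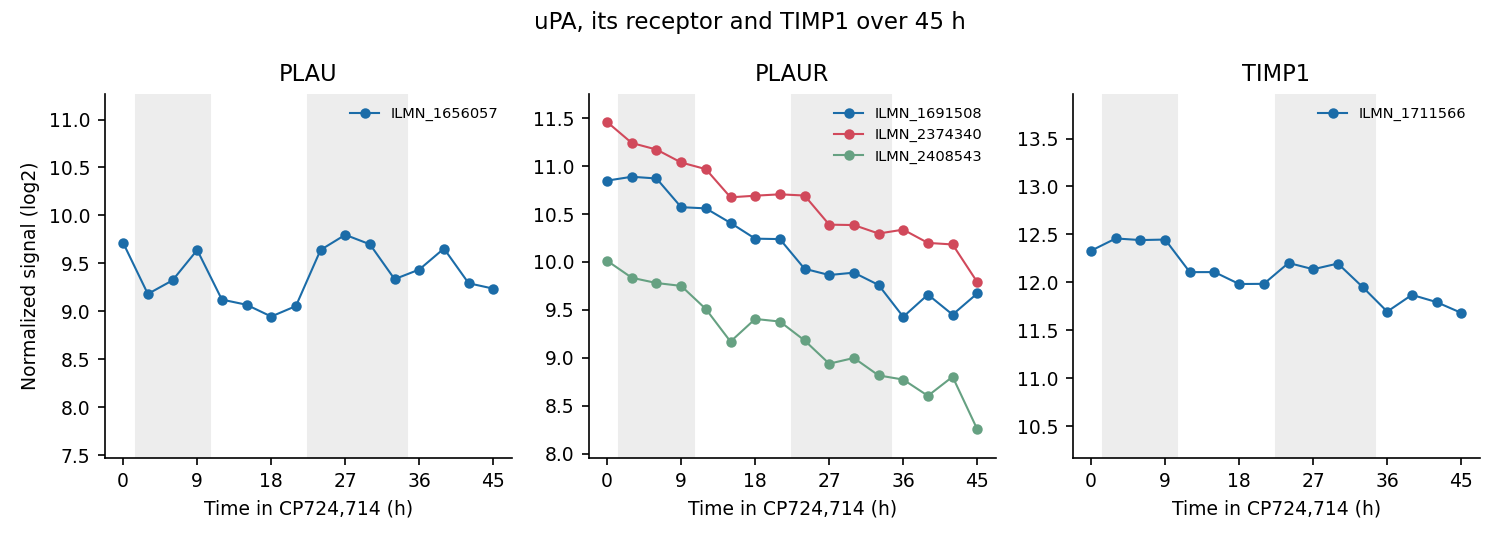
Normalized log2 signal against hours in CP724,714 for PLAU, the 3 PLAUR probes and TIMP1, 1 point per array, on axes of equal span. Grey bands mark the 3 to 9 h and 24 to 33 h windows. The PLAUR probes run downward on average from window to window, PLAU dips to 8.95 at 18 h and stands at 9.80 at 27 h, and TIMP1 ends at 11.68.

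MMP7, also called matrilysin, is a small secreted protease that cuts matrix proteins and cell surface proteins. Its raw signal was 206, 177, 191 and 226 from 0 to 9 h, none of them detected. It was 188, 204, 256 and 266 from 12 to 21 h, of which the 18 h array was detected, and 238, 428, 251 and 283 from 24 to 33 h. From 36 to 45 h it was 259, 356, 320 and 308. MMP7 was thus undetected on 7 of the first 8 arrays and detected on each of the last 8, with no raw signal above 428.

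On the log2 scale MMP7 averaged 5.61 ± 0.26 (SD, n = 3) at 3 to 9 h, 5.60 ± 0.49 (n = 4) at 12 to 21 h, 6.79 ± 0.41 (n = 4) at 24 to 33 h and 7.26 ± 0.39 (n = 4) at 36 to 45 h. The linear change was 2.31 ± 0.28 (limma, adjusted p = 1.33e-06), and it was 0.86 without background correction and 1.63 with an offset of 50, still called in both (adjusted p = 2.13e-06 and 1.07e-06). The size of the rise thus depends on how the background is treated. Before 24 h the probe was detected at 18 h alone, so it passed the detection filter only through its late arrays, where it was high. Because the early arrays give only a bound, the mean of 36 to 45 h was at least 2.11-fold higher than that of 3 to 9 h and at least 2.32-fold higher than the 0 h array, taking for each early array the higher of its own value and the lowest signal of a detected probe. With the 12 h set as a factor the change was 2.61 ± 1.07 and was not called (limma, adjusted p = 0.256).

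MMP9, or gelatinase B, digests denatured collagen and type IV collagen of basement membranes. It was detected on 10 of 16 arrays, namely those from 0 to 15 h and at 24, 27, 33 and 36 h. The log2 signal was highest at 0 h (7.32), was 6.95, 6.39 and 6.90 at 3, 6 and 9 h, and was lowest at 45 h (5.76). In between it was 6.56, 6.12, 6.02 and 5.88 from 12 to 21 h and 6.57, 6.44, 5.98 and 6.22 from 24 to 33 h, and then 6.59, 5.88 and 5.83 at 36, 39 and 42 h. The later arrays thus overlapped among themselves, and the first 4 arrays lay mostly above them. The linear change was -1.05 ± 0.23 (limma, adjusted p = 0.000944), and the 45 h array was at least 2.11-fold lower than the 0 h array. The change was -0.85 without the 0 h array and -0.38 without background correction, still called in both, and with the set as a factor it was -3.02 ± 0.86 and not called (limma, adjusted p = 0.103).

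MMP14 (MT1-MMP) is anchored in the plasma membrane and activates the precursor of MMP2. It was detected on 4 of 16 arrays (9, 24, 33 and 36 h), with raw signals from 201 to 254 and a median of 222. The log2 signal lay between 5.33 (15 h) and 6.31 (24 h), and no window step was called. Its linear change of -0.19 ± 0.25 (95% interval -0.72 to 0.34) was not called (limma, adjusted p = 0.572). MMP1, the interstitial collagenase, had raw signals of 187 to 279 with detection p-values from 0.0524 to 0.368. MMP10 (stromelysin 2) had raw signals of 135 to 221 with detection p-values of 0.384 or more, and MMP13 (collagenase 3) had 141 to 210 with detection p-values of 0.392 or more. For these 3 genes no change with time could be seen at this signal, which does not show that their transcripts were absent.

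**Figure D2:**
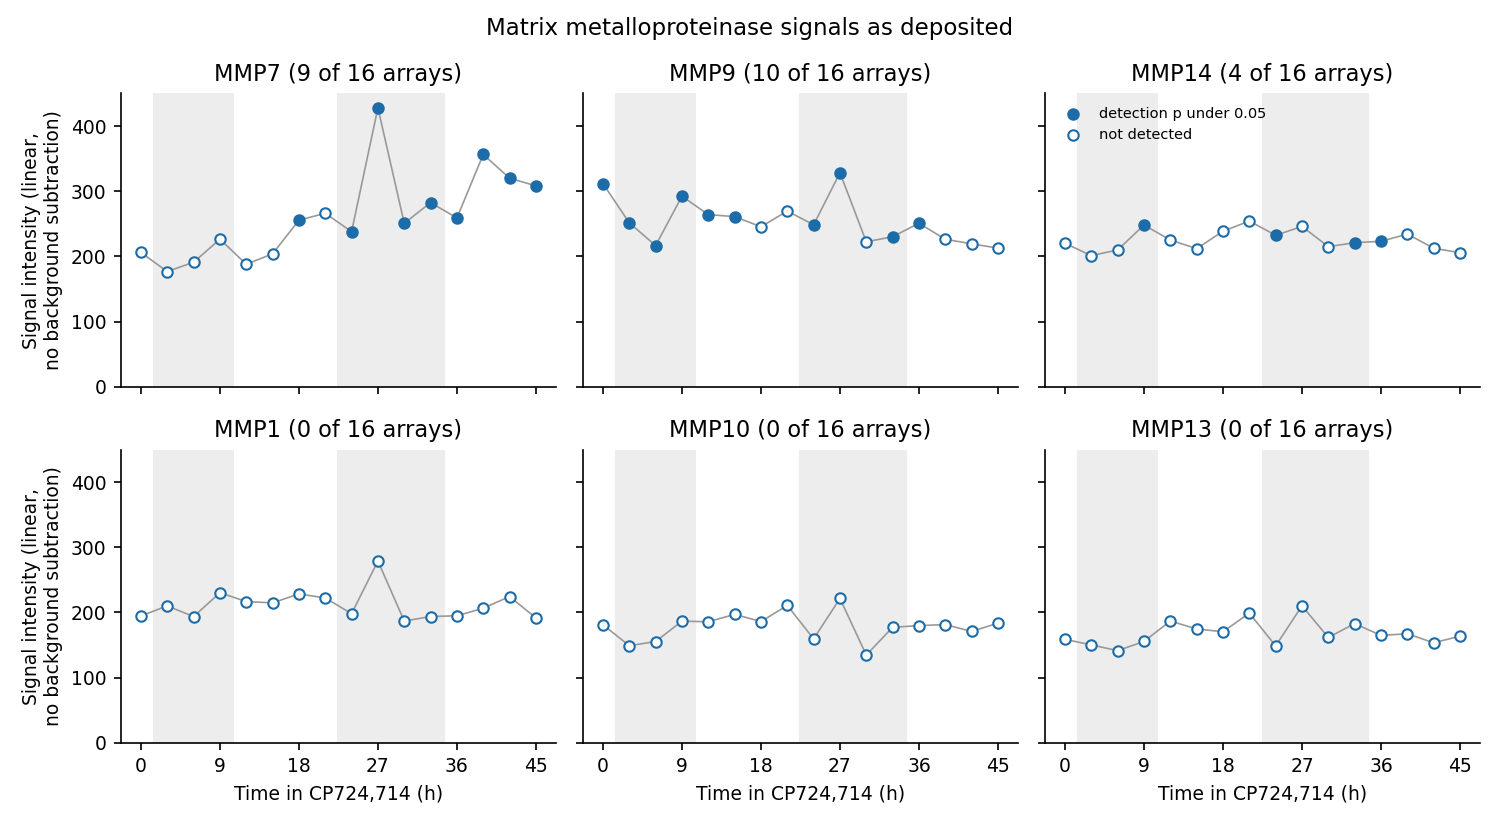
Raw linear signal, with no background subtraction, against hours in CP724,714 for the 6 metalloproteinase probes, 1 point per array. Filled points had a detection p under 0.05 and open points did not, and grey bands mark 3 to 9 h and 24 to 33 h. MMP7 is open until 15 h and filled from 24 h on, MMP9 is filled at the start and open at 39, 42 and 45 h, MMP14 is filled on 4 arrays, and MMP1, MMP10 and MMP13 are open on all 16.

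The second comparison asked when the members changed, by setting the mean of each 12 h window against that of the window before. Between the 0 h array and the 3 to 9 h arrays no member was called in either direction (limma, 0 of 8, and 0 at an unadjusted p under 0.05), and of all probes 1.14% were called higher and 1.19% lower. The lowest adjusted p was 0.444, and this step rests on a single 0 h array, assumed to vary like the others. Between 3 to 9 h and 12 to 21 h, 4 of 8 member probes were lower (12.9% of all probes). None was higher (limma, 0 of 8, and 0 at an unadjusted p under 0.05, against 14.8% of all probes). The 4 lower probes were TIMP1 (-0.40 ± 0.08, limma, adjusted p = 0.000847) and the 3 of PLAUR. The PLAUR probes were ILMN_1691508 (-0.41 ± 0.11, limma, adjusted p = 0.0084), ILMN_2408543 (-0.42 ± 0.13, adjusted p = 0.0219) and ILMN_2374340 (-0.39 ± 0.13, adjusted p = 0.0256). The receptor and the inhibitor genes came down at the same step, and their arrays of the later window all lay below those of the earlier one. The last 2 of these PLAUR calls were lost under median scaling (-0.32 each, limma, adjusted p = 0.0932 and 0.0787). PLAU (-0.33 ± 0.13, limma, adjusted p = 0.0712) and MMP9 (-0.60 ± 0.24, adjusted p = 0.0667) had lower estimates that did not pass.

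Between 12 to 21 h and 24 to 33 h, MMP7 and PLAU were higher (2 of 8 probes, against 5.20% of all probes) and 1 PLAUR probe was lower (4.11% of all probes). MMP7, detected on 1 of the 4 arrays of the earlier window, differed by 1.19 ± 0.26 (limma, adjusted p = 0.00575) and by 0.43 without background correction (adjusted p = 0.00898), so the size of this step is uncertain. MMP7 also entered the test only through its arrays from 24 h on, where it was high. PLAU differed by 0.57 ± 0.12 (limma, adjusted p = 0.00557). All 4 PLAU arrays from 24 to 33 h lay above all 4 from 12 to 21 h, and the same was true of MMP7. PLAUR ILMN_1691508 differed by -0.50 ± 0.10 (limma, adjusted p = 0.0034), and the other PLAUR probes by -0.38 ± 0.12 (adjusted p = 0.0565) and -0.32 ± 0.12 (adjusted p = 0.0972). PLAU and this receptor probe therefore stepped in opposite directions. Between 24 to 33 h and 36 to 45 h only TIMP1 was called, lower by -0.36 ± 0.07 (limma, adjusted p = 0.00479), as 1 of 8 member probes against 3.11% of all probes, and 0 members were higher (0 also at an unadjusted p under 0.05) against 0.900%. MMP7 (0.47 ± 0.26, limma, adjusted p = 0.423) and PLAU (-0.21 ± 0.12, adjusted p = 0.446) did not pass.

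**Figure D3:**
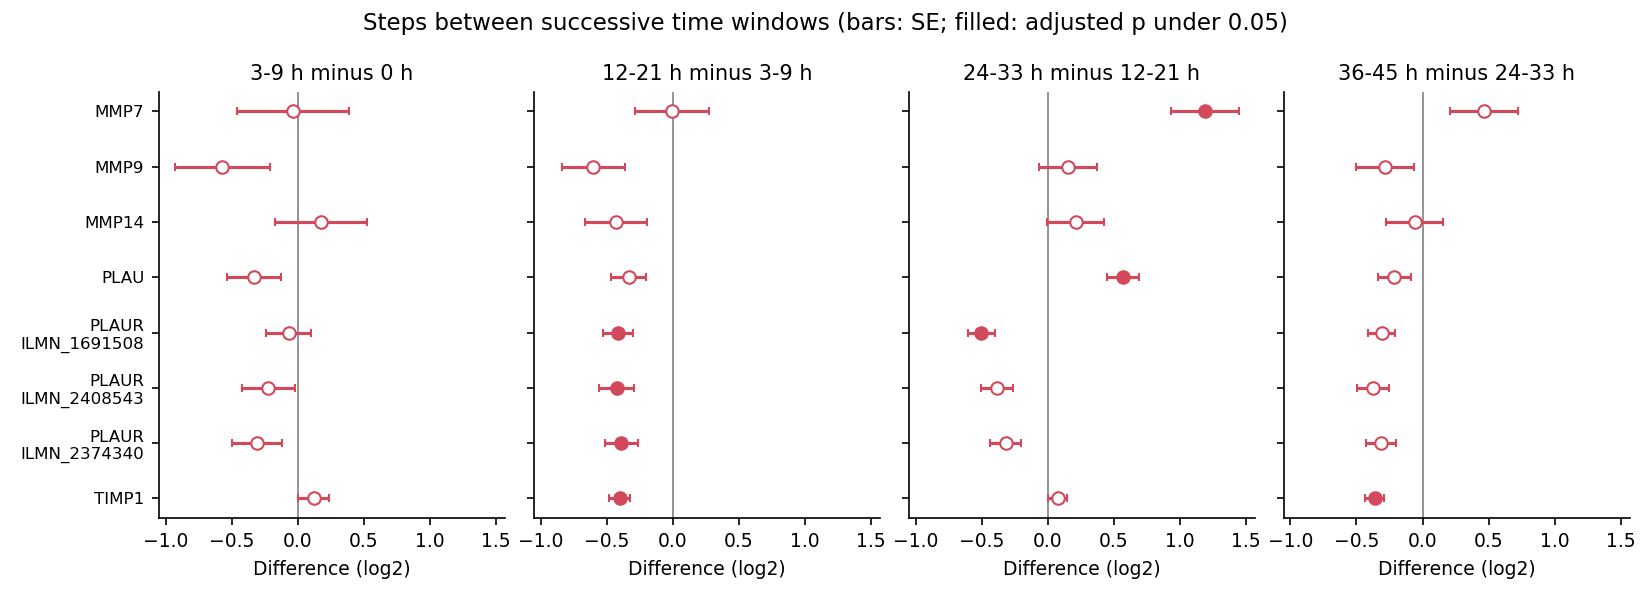
Difference in mean log2 signal between each window and the one before, with its SE from the limma fit, for the 8 tested member probes. Filled points had an adjusted p under 0.05. TIMP1 and PLAUR are filled below 0 in the second panel, MMP7 (1.19) and PLAU (0.57) are filled above 0 in the third, and TIMP1 (-0.36) alone is filled in the last.

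The changes of receptor, ligand and inhibitor were then set against each other array by array, with the brightest probe of each gene. These pairs were chosen after the values were seen, so the p-values of a permutation test run on them are not given. Over 45 h PLAUR changed by -1.47 log2 units relative to PLAU and by -0.70 relative to TIMP1, and TIMP1 by -0.78 relative to PLAU. Within the 12 h sets the change of PLAUR was -0.97 relative to PLAU and -1.50 relative to TIMP1, while that of TIMP1 relative to PLAU turned to 0.53. The PLAUR values are those of ILMN_2374340 (-1.86 within sets) and depend on the probe. Within the sets ILMN_1691508 (-0.73) fell less than PLAU (-0.89), which reverses the sign for that pair, and ILMN_2408543 (-1.27) fell more. Both fell more than TIMP1 (-0.36), but by less than ILMN_2374340 did.

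The members were read beside 84 other genes of extracellular proteolysis, of which 60 had a tested probe, with the brightest probe taken for each gene. A linear rise was called for 14 and a fall for 15 of the 60 genes, against 26.0% and 21.7% of all probes, and 31 were not called. These counts, 14 and 15 of 60, were near the shares of all probes, so they say nothing particular about the list. Their median linear change was 0.11, against 0.05 for all probes. For 12 of these genes further probes were tested, and none of the 18 further probes was called in the direction opposite to the brightest one, although 6 differed in being called or not.

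Around plasminogen, 8 of 12 listed genes were tested, and 3 rose and 3 fell (against 26.0% and 21.7% of all probes). With so few genes these counts say nothing particular about the group. The rising genes were SERPINA5 (1.60 ± 0.11, limma, adjusted p = 7.8e-10), the protein C inhibitor, which also inhibits urokinase, VLDLR (1.23 ± 0.11, adjusted p = 2.87e-08), an endocytic receptor that takes up urokinase bound to its inhibitor, and SERPINB2 (1.09 ± 0.17, adjusted p = 3.5e-05), plasminogen activator inhibitor type 2. The falling genes were SERPINE2 (-1.06 ± 0.19, limma, adjusted p = 9.37e-05), which encodes protease nexin 1, C9orf46 (PLGRKT, -0.43 ± 0.10, adjusted p = 0.00187), a plasminogen receptor, and S100A10 (-0.11 ± 0.04, adjusted p = 0.0295), a surface partner of plasminogen. Of the urokinase inhibitors with a tested probe, SERPINA5 and SERPINB2 thus had a rising linear change and SERPINE2 a falling one. The SERPINE2 course was curved (limma, adjusted p = 0.00445), with 9.28 at 0 h and 9.03 at 45 h. It stepped by -1.13 between 12 to 21 h and 24 to 33 h, and by 0.34 to 36 to 45 h. ANXA2, the annexin partner of S100A10, changed by -0.01 ± 0.04 and the scavenger receptor LRP1 by -0.02 ± 0.29, neither called. S100A10 and ANXA2 had log2 signals of 16.13 and 16.11 at 0 h, against a highest value of 16.14 on the arrays, which limits the changes that can be measured in them. PLG, PLAT, MRC2 and SERPINF2 were detected on 0 arrays.

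Among the other metalloproteinase inhibitors, TIMP4 fell (-1.14 ± 0.30, limma, adjusted p = 0.00373) but was detected on 5 arrays only. TIMP2 (0.22 ± 0.10, adjusted p = 0.0906) and TIMP3 (0.13 ± 0.26, adjusted p = 0.712) were not called, and RECK was detected on 0 arrays. Of 18 other metalloproteinase genes 6 were tested. MMP3 (stromelysin 1), a further gene of the chromosome 11 cluster, fell by 1.38 ± 0.33 log2 units (limma, adjusted p = 0.00197), against the rise of MMP7. MMP23B rose (1.12 ± 0.21, limma, adjusted p = 0.000188), and its near-identical copy MMP23A leaves the source of that signal uncertain.

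Of 8 tested genes of membrane serine proteases and their inhibitors 3 rose and 0 fell (limma, with 0 falls also at an unadjusted p under 0.05, against 26.0% rises and 21.7% falls among all probes). TMPRSS2, an androgen-regulated surface protease, rose by 1.74 ± 0.11 (adjusted p = 2.64e-10), PRSS8 (prostasin) by 0.59 ± 0.15 and the inhibitor SPINT1 by 0.48 ± 0.19 (limma, adjusted p = 0.00255 and 0.0442). The course of this SPINT1 probe was curved (limma, adjusted p = 0.00504), and it stood at 11.29 at 0 h and 11.07 at 45 h. The dimmer SPINT1 probe rose by 0.88 ± 0.13 (limma, adjusted p = 1.17e-05). Of 9 ADAM and ADAMTS genes, the sheddase genes ADAM10 (1.44 ± 0.25, limma, adjusted p = 8.62e-05) and ADAM17 (0.34 ± 0.13, adjusted p = 0.0348) rose with ADAM15 (0.30 ± 0.04), and ADAM19 fell (95% interval of the linear change -1.37 to -0.62, adjusted p = 0.000119), while its dimmer probe was not called (0.13 ± 0.25, limma, adjusted p = 0.693). The ADAM15 probe lay near the top of the scale (15.59 at 0 h and 16.00 at 45 h). Of its dimmer probes ILMN_2384544 rose (0.35 ± 0.11, limma, adjusted p = 0.0137) and ILMN_1751500 was not called (0.12 ± 0.16, adjusted p = 0.581). Of 6 cofactors and activators, CD44, which can hold MMP7 and MMP9 at the cell surface, fell by 1.44 ± 0.10 (limma, adjusted p = 1.35e-09), CLDN1 by 0.74 ± 0.08 and BSG, an inducer of metalloproteinases, by 0.61 ± 0.17, while CD151 rose by 0.14 ± 0.04 on a probe near the top of the scale (15.97 at 0 h and 16.06 at 45 h), and its dimmer probes were not called (0.33 and 0.23, limma, adjusted p = 0.0954 and 0.223). Of 8 matrix substrates 0 rose, also at an unadjusted p under 0.05 (limma, against 26.0% of all probes), and 2 fell (against 21.7%), namely COL4A1 (-1.40 ± 0.18, limma, adjusted p = 2.66e-06) and TNC (-0.46 ± 0.16).

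The last list held AP-1 subunits and ETS factors, the latter including the PEA3 family. Of 12 tested, 3 rose and 4 fell (against 26.0% and 21.7% of all probes), counts too small to say anything particular about the group. ETV5 (-3.56 ± 0.42, limma, adjusted p = 8.71e-07) and ETV4 (-3.33 ± 0.24, adjusted p = 1.71e-09) of the PEA3 family fell, with the AP-1 subunit FOSL1 (-1.51 ± 0.32) and with ETS1 (-0.64 ± 0.25), an ETS factor of another family. ETV4 was detected on 12 arrays and FOSL1 on 10. Their 45 h values (5.68 and 5.95) lay below the lowest detected value of that array (6.24), so the sizes of these 2 falls are uncertain. ELF3, an epithelial ETS factor, rose by 1.85 ± 0.13 (limma, adjusted p = 1.54e-09), the ETS factor ETS2 by 1.03 ± 0.15 and the AP-1 subunit JUND by 0.55 ± 0.08. JUN, FOS, FOSB, FOSL2 and JUNB were not called. A dimmer ETV5 probe changed by -0.13 ± 0.30 and was not called. Beyond the naming rule, and after their values were seen, SPINT1, ADAM15, BSG, FOSL1, ETS1, JUND, the AP-1 genes not called, the listed genes detected on 0 arrays and the dimmer probes are named. When the set entered as a factor, 0 of these 60 genes were called in limma (10 at an unadjusted p under 0.05). Of all 16110 probes 145 were called in that fit, so the 0 of 60 says nothing particular about the list.

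**Figure D4:**
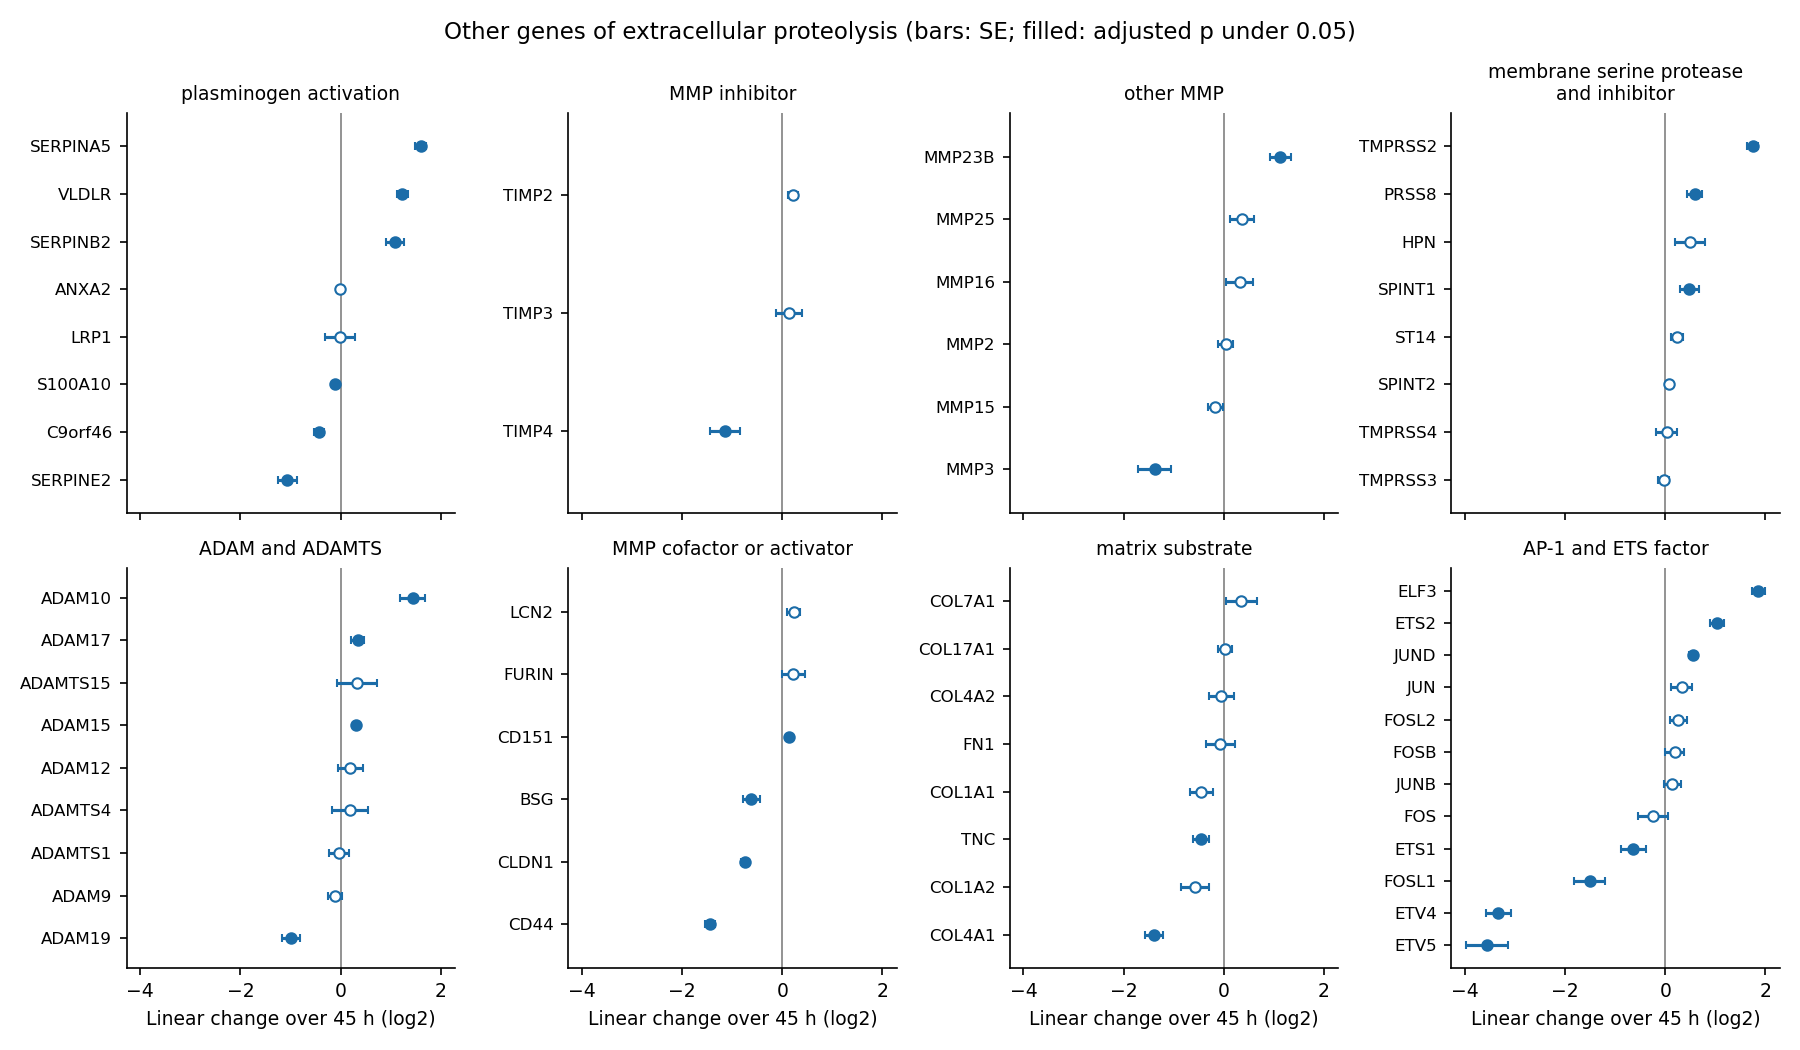
Linear change over 45 h in log2 units, with its SE from the limma fit, for the brightest probe of 60 other genes of extracellular proteolysis in 8 groups. Filled points had an adjusted p under 0.05. SERPINA5 (1.60), TMPRSS2 (1.74) and ELF3 (1.85) lie on the rising side, and CD44 (-1.44), COL4A1 (-1.40), ETV4 (-3.33) and ETV5 (-3.56) on the falling side.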

How the data were processed

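The authors deposited a linear intensity per probe for every array, without background subtraction or normalization, and beside it a deposited detection p-value. Quantile normalization is named in the study's methods as a later step. The study's methods name the Illumina human Ref8v2 array for time courses of other lines, and no array version is given for these samples. No replicate existed at any time point, and each of the 16 samples was placed by the time in its label, with 0 columns of sample values left unused. In R 4.3.3 with limma 3.58.1, the function neqc (normexp with negative controls inferred from detection p-values, offset 16, quantile normalization, log2) was applied. The offset makes fold changes of dim probes smaller. Probes detected on at least 3 arrays (16110) entered 2 fits (lmFit, then eBayes with trend). One was a cubic in hours, whose first-order coefficient is the linear change over 45 h and whose other coefficients test curvature. The other had 5 levels (0 h and the windows 3 to 9, 12 to 21, 24 to 33 and 36 to 45 h). Tests were two-sided, adjusted by Benjamini-Hochberg over all probes, at a threshold of 0.05. Errors are deviations of single arrays around the fitted courses. They hold differences between cultures, differences between arrays and any misfit of the course, which cannot be separated without replicates. The number of arrays limits the precision. The fits were tested on simulated data.

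Where a window or array was not detected, folds are bounds against the higher of the probe's own value and the lowest detected log2 value of that array. Promoters were searched in Python 3.11.15, and figures drawn with matplotlib 3.10.9. Members, gene lists and windows were chosen with earlier results of these data known. Named genes were all member probes, every tested gene of the plasminogen and inhibitor lists, the 2 largest called rises and falls of each other list, and the 3 genes most correlated with each member. Alternatives were an offset of 50 or no background correction, cyclic loess or median scaling, no filter or detection on all 16 arrays, other time courses, array weights, the set of 4 arrays as a factor, and each array left out. Some genes of the lists are not reported here and were left out of the lists and counts. The comparisons of pairs of members were added after the data were seen.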

Additional observations from a re-analysis of the deposited data

How the results depend on the processing

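Of 189 values recomputed for the main counts, 180 stayed within 1.5 times the reported count, and of 407 values for single probes and pairs 388 did not change in sign or call. The fit of the 12 h set as a factor moved most, with 1 member probe keeping a linear trend against 6 and 0 listed genes against 29. Of all 16110 probes, 26.0% were called rising and 21.7% falling without the factor, and 145 were called in this fit. In it PLAU (-0.89, against 0.09) and TIMP1 relative to PLAU (0.53, against -0.78) changed sign, and only differences within 9 h enter it. PLAU also changed sign under cyclic loess (-0.0042), and neither estimate of PLAU was called. Array weights gave 5 calls against 3 between 12 to 21 h and 24 to 33 h, and 2 against 1 between 24 to 33 h and 36 to 45 h, where median scaling also gave 2. The cause of these differences was not tested.

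With each array left out in turn, 6 to 7 member probes were time-dependent, 6 had a linear trend each time, and 0 to 1 were curved (1 without the 9 h array). The steps between windows gave 0 calls each time for the first (not defined without the 0 h array), 2 (without the 15 h array) to 5 (without the 12 h array) for the second, 3 to 5 for the third (5 without the 24 h and without the 45 h array) and 1 each time for the last. The listed genes with a trend numbered 25 (without the 0 h array) to 33 (without the 45 h array). The second step of PLAUR was lost in 3 of these fits for ILMN_2408543 and in 5 for ILMN_2374340, and not in any for ILMN_1691508. No paired analysis was possible because a single array was hybridised per time point. Signals of MMP1, MMP7, MMP9, MMP10, MMP13 and MMP14 lay close to background, which limits what can be measured for them.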

Other observations

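Over the 16 arrays, the 3 PLAUR probes correlated with each other at a Pearson r of 0.92 to 0.99, and with TIMP1 at 0.84 to 0.85. PLAU correlated with PLAUR at -0.19 to -0.02, and MMP7 with PLAUR at -0.86 to -0.84. These values are descriptions over arrays ordered in time, and all probes with a trend share that order.

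By the brightest tested probe of each gene, the courses most like that of PLAUR were those of FLJ13909 (r = 0.97), XRCC3 (0.97), a gene of homologous recombination, and CBX5 (0.97), which encodes a heterochromatin protein. The symbol FLJ13909 was not matched to a current name. The courses most like that of TIMP1 were PRIM1, NCAPG2 and TK1 (0.97 each), genes of DNA priming, chromosome condensation and thymidine salvage. PLAU was closest to FGFBP1 (0.84), KRT13 (0.83) and ERCC1 (0.83), which encode a carrier of fibroblast growth factors, a keratin and a DNA repair protein. MMP7 was closest to RAB11A (0.95), NICN1 (0.94) and SCGB2A1 (0.94), the last a mammary secretoglobin. MMP9 was closest to DISP2 (0.89), SLC29A2 (0.86) and UBPH (UBFD1, 0.85), and MMP14 to LOC641949 (0.87, not matched to a current name), PACSIN1 (0.84) and RBP2 (0.80).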
